A study of Mus musculus with 6 samples.

Results

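Basement membrane genes for laminin chains, nidogens and heparan sulfate proteoglycans were compared between adrenal glands with and without a Cre transgene directed against the Hippo kinases MST1 and MST2. The 10 genes, out of 19505 genes named on the array, are the laminin chains Lama2, Lama4, Lama5, Lamb1, Lamb2 and Lamc1, the nidogens Nid1 and Nid2, and the proteoglycans Hspg2 (perlecan) and Agrn (agrin). They were taken by symbol from the platform's annotation, and all 10 were measured. A gene with several probe sets was to be represented by the one chosen by its mean signal over the 6 arrays, but each of the 10 had 1 probe set, so no measured value decided which was used. Female mice aged 2 months gave whole adrenal glands, whose RNA was hybridised to Affymetrix whole-transcript arrays, with an array for each animal. The 3 control animals had the genotype Mst1flox/flox;Mst2flox/flox, with both kinase genes floxed and no Cre. The 3 mutant animals carried the same floxed alleles together with Nr5a1-cre, which is driven by a gene of steroid-producing cells. The comparison asks which transcripts differ once both kinases are to be lost from those cells. A whole gland also holds vessels, capsule and medulla, which do not make steroids.

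The 6 arrays had median log2 signals of 6.76 to 6.83 over the 22206 probe sets tested, and with 3 animals a group the precision of each value is limited. The tissue label was checked against 10 measured cortex markers, whose mean log2 signal lay between 17.50 and 17.72 in all 6 glands. Stk4, which encodes MST1, measured 8.64 ± 0.31 in control and 8.32 ± 0.16 in mutant glands (SD, n = 3 each; limma adjusted p = 0.623), and the groups overlapped. Stk3, which encodes MST2, was looked for, but no probe set tested carried it as its single gene symbol. The sources do not place the Stk4 probes against the deleted exons, so this gene is no check of the genotype labels.

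Basement membranes are thin sheets of matrix under epithelia and around vessels, muscle, fat and nerve cells. A laminin is a trimer of an alpha, a beta and a gamma chain. Laminins assemble into a network on the cell surface by binding integrins and dystroglycan, collagen IV forms another network, and nidogens and perlecan bridge them. In the adrenal cortex, cords of steroid-producing cells lie against a dense bed of capillaries with basement membrane between them. A bulk gland does not show which cells made a transcript, and more cells of a type cannot be told apart from more RNA per cell.

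All 10 genes had higher mean signals in mutant glands, by 0.07 (Lamb2) to 1.02 (Lama2) log2 units, with a median of 0.52 against -0.01 over all probe sets tested. The 6 genes Lama2, Hspg2, Lamc1, Lamb1, Nid2 and Nid1 were higher in every mutant than in every control, by 1.39-fold to 2.03-fold in the group means. Of all probe sets, 8% were separated in this direction. Lama4, Lama5, Lamb2 and Agrn overlapped between the groups. None of the 10 passed the test: 0 of 10 had a limma adjusted p under 0.05, where 0.0721% of the 22206 probe sets did. At an unadjusted p under 0.05 there were 6 of 10, the same 6 genes and all higher, where 5.42% of all probe sets were called in that direction and 4.96% in the other. With 1 animal left out, that count was 5 without control 1, 3 without control 2 and 6 without control 3. It was 4 without mutant 1 or without mutant 2, and 7 without mutant 3. The shares above belong to the fit of all 6 arrays and were not taken for these smaller fits. The genes were listed with results of these glands already known, so these counts describe the list and carry no independent weight.

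**Figure D1:**
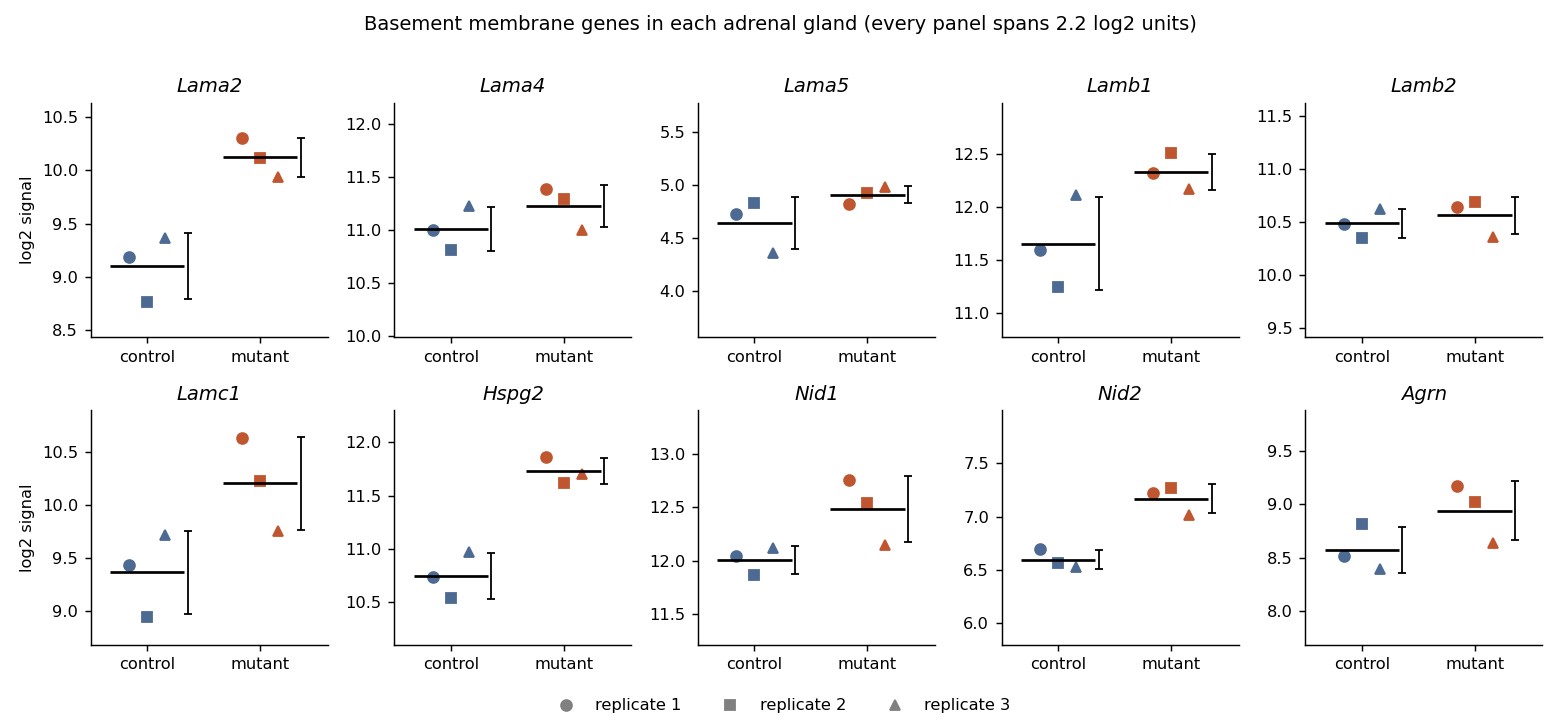
Log2 signal of the 10 genes in each of the 3 control (blue) and 3 mutant (orange) glands, with group means (horizontal lines) and SD (bars beside them). Marker shapes give the replicate number, which was not used to pair animals. Lama2, Hspg2 and Nid2 show wide gaps between the groups, whereas the lowest mutant and highest control of Lamc1, Lamb1 and Nid1 nearly touch.

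Sequences just before the transcription start are shown for 4 of the genes. The studied kinases act through YAP and TAZ, which reach DNA through TEAD factors, so the TEAD motif was among those searched. Whether these factors act on the 10 genes was not tested. Lama2 and Hspg2 had the largest changes among the 10, Lamb2 had the smallest, and Nid1 had the only match to the TEAD motif searched. RefSeq promoter windows (GRCm38.p6) were found for 7 of the 10 genes, and not for Lama4, Lamc1 and Nid2; Agrn had more than 1 window. Each sequence holds the 250 bases before the annotated start, 5′ to 3′ on the gene's strand. Capitals mark GGAATG, the core of the TEAD site, and GGGCGG, the GC box bound by SP1-type factors, on either strand.
Hspg2, chr4:137468553-137468802, plus strand: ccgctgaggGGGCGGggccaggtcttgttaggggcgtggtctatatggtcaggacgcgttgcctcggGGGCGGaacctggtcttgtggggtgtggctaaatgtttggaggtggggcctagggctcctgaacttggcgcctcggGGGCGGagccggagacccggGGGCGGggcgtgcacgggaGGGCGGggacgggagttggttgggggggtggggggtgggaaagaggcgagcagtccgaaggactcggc
Nid1, chr13:13437352-13437601, plus strand: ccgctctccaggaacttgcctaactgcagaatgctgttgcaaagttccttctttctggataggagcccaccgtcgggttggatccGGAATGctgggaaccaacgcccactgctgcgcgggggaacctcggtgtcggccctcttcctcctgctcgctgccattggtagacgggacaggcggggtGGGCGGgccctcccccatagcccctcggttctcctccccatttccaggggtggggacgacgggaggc
Lama2, chr10:27616943-27617192, minus strand: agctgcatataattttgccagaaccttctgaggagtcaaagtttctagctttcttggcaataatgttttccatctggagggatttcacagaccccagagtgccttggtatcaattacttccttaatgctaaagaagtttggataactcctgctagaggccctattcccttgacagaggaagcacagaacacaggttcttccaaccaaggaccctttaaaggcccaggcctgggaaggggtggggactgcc
Lamb2, chr9:108479612-108479861, plus strand: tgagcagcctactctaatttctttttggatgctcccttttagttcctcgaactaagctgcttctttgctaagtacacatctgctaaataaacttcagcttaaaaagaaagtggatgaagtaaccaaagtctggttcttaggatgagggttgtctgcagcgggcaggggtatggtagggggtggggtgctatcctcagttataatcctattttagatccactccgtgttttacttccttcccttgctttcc

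GGAATG occurred in 1 of the 8 windows of these genes, that of Nid1, where it begins 165 bases before the start, and in 12.6% of all 32851 windows of the same length. GGGCGG occurred in 6 of the 8, those of Hspg2, Agrn (2 windows), Lama5, Lamb1 and Nid1, against 32.7% of all windows. These 6 windows had 60.8% to 83.6% G and C, and the comparison with all windows was not matched for that content. The Hspg2 sequence holds 5 copies and 1 of the Agrn windows 12. Lama2 and Lamb2, at opposite ends of the range of changes, both lack GGGCGG here, and their windows have 47.2% and 43.6% G and C, against a median of 52.4% over all windows and 70% in Hspg2. The AP-1 site TGANTCA, the half-site AAGGTCA bound by the Nr5a1 protein and the TATA box TATAAA were each in 0 of the 8, and in 6.75%, 4.08% and 12.4% of all windows. GGGCGG was found both in genes separated between the groups (Hspg2, Lamb1 and Nid1) and in genes that overlapped (Agrn and Lama5). The other motifs had at most 1 matching window, and the separated genes Lamc1 and Nid2 had no window. The search therefore cannot tell whether any motif goes with separation. These matches describe letters in a short window and do not show binding.

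The alpha chains carry the main cell-binding sites of a laminin, and their changes ran from 0.21 to 1.02 log2 units. Lama2 encodes the alpha 2 chain of muscle and Schwann cell laminin (merosin), whose loss causes a muscular dystrophy. Its log2 signal in the 3 controls was 9.19, 8.76 and 9.36, against 10.31, 10.12 and 9.94 in mutant glands (probe set TC1000001919.mm.2). Every mutant lay above every control, with 0.58 log2 units between the nearest animals. The group means, 9.10 ± 0.31 and 10.12 ± 0.18 (SD, n = 3 each), differ by 1.02 log2 units (SE 0.20, 95% interval 0.57 to 1.47, limma adjusted p = 0.119), or 2.03-fold. Lama2 passed only when limma's variance prior was made robust and allowed to depend on signal (limma adjusted p = 0.0385).

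Lama4 encodes the alpha 4 chain, a main alpha chain of blood vessel basement membrane. It measured 10.999, 10.81 and 11.23 in controls and 11.38, 11.29 and 11.002 in mutants (TC1000000322.mm.2). Mutant 3 lay among the controls, and the difference of 0.21 (SE 0.18, 95% interval -0.19 to 0.62, limma adjusted p = 0.737) was about as large as the SD within each group. Lama5 encodes the alpha 5 chain of epithelial and mature vessel basement membranes. Its signals, 4.73, 4.83 and 4.36 in control glands and 4.82, 4.92 and 4.98 in mutant glands (TC0200005402.mm.2) fell inside the span of 23 background probe sets, 2.53 to 7.32. The Lama5 difference of 0.27 (SE 0.17, limma adjusted p = 0.647) is therefore a difference between signals not told apart from background. This range is wide, as 11851 of the 22206 probe sets had both group means at or below 7.32.

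The beta chains had one member separated between the groups and one that was not. Lamb1 encodes the beta 1 chain of the widely expressed laminins, including those of early development. It measured 11.59, 11.25 and 12.11 in controls and 12.31, 12.50 and 12.17 in mutants (TC1200000263.mm.2). The mutants were above the controls, but mutant 3 exceeded control 3 by 0.05 log2 units. The change was 0.68 (SE 0.23, 95% interval 0.15 to 1.20, limma adjusted p = 0.368) and the controls were 0.87 apart at their extremes. Lamb2, the beta 2 chain of synaptic and glomerular laminins, measured 10.48, 10.35 and 10.63 in controls and 10.64, 10.69 and 10.36 in mutants (TC0900001408.mm.2). Here mutant 3 was as low as control 2, and the change was 0.07 (SE 0.16, 95% interval -0.29 to 0.44, limma adjusted p = 0.916).

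Lamc1 encodes the gamma 1 chain, the partner of nearly all alpha and beta chains above. It measured 9.43, 8.95 and 9.72 in controls and 10.62, 10.22 and 9.75 in mutants (TC0100003273.mm.2). Mutant 1 and mutant 2 were well above the controls, while mutant 3 was 0.03 log2 units above control 3. The means were 9.37 ± 0.39 and 10.20 ± 0.44 (SD, n = 3 each), a 1.78-fold difference, or 0.83 log2 units (SE 0.27, 95% interval 0.22 to 1.45, limma adjusted p = 0.348).

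Nidogens are rod-shaped glycoproteins that bind the laminin gamma 1 chain and collagen IV. Nid1 measured 12.04, 11.86 and 12.12 in controls and 12.76, 12.54 and 12.15 in mutants (TC1300000087.mm.2). As with Lamc1, mutant 3 was 0.03 above the highest control, and the change was 0.47 (SE 0.19, 95% interval 0.04 to 0.91, limma adjusted p = 0.442). Nid2, which can stand in for Nid1 in most basement membranes, measured 6.70, 6.56 and 6.52 in controls and 7.22, 7.27 and 7.01 in mutants (TC1400000158.mm.2). Its animals were separated by 0.32 log2 units, and the change was 0.57 (SE 0.15, 95% interval 0.24 to 0.91, limma adjusted p = 0.242). All 6 Nid2 signals lay within the background range, so the size of its change may be compressed.

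Perlecan and agrin are large proteins that carry heparan sulfate chains, which hold growth factors in the matrix. Hspg2, the perlecan gene, measured 10.73, 10.54 and 10.97 in controls and 11.86, 11.62 and 11.70 in mutants (TC0400001708.mm.2). It had the widest gap between the groups among the 10 genes, 0.65 log2 units, and the smallest adjusted p. Its means of 10.75 ± 0.22 and 11.73 ± 0.12 (SD, n = 3 each) differ by 0.98 (SE 0.17, 95% interval 0.60 to 1.36, limma adjusted p = 0.0803), or 1.98-fold. Hspg2 passed with the trend and robust variance model (limma adjusted p = 0.0131) and when only the brighter probe sets were tested (0.0353). Agrn, which clusters acetylcholine receptors at the neuromuscular junction and binds dystroglycan elsewhere, measured 8.52, 8.81 and 8.40 in controls and 9.17, 9.02 and 8.64 in mutants (TC0400004170.mm.2). Mutant 3 lay below control 2, and the change was 0.37 (SE 0.19, 95% interval -0.07 to 0.81, limma adjusted p = 0.563).

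**Figure D2:**
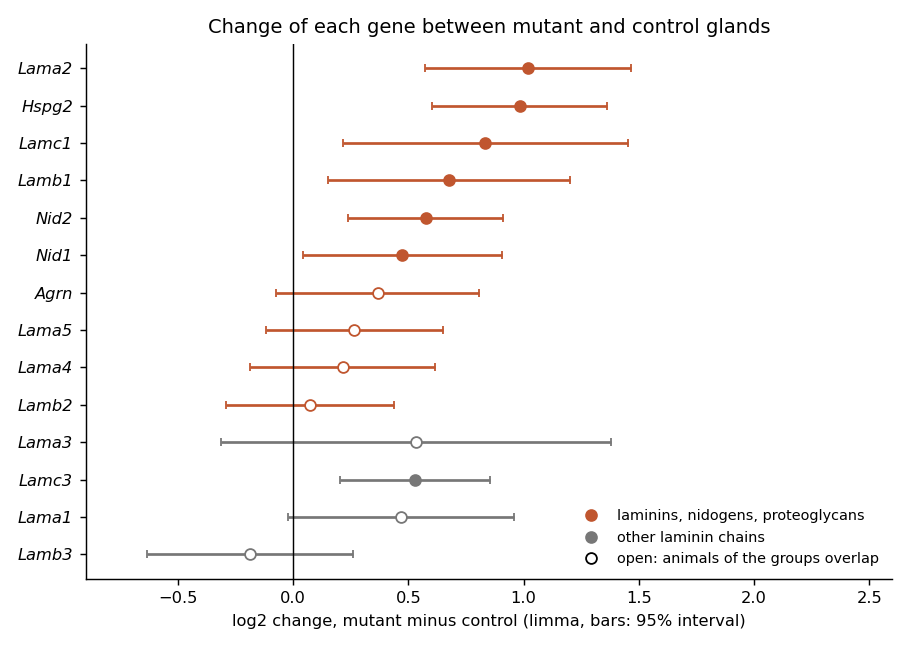
Log2 change between mutant and control glands with its 95% interval from limma (n = 3 each) for the 10 genes (orange) and for the 4 other laminin chains measured (grey); open circles mark genes whose animals overlap between groups. Lama2 at 1.02 and Hspg2 at 0.98 lie farthest from 0, and Lamb2 lies at 0.07.

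Related genes were then set against each other within each gland, since a change shared by a whole array cancels in such a difference. Only the change of a difference between groups is read, as signals of different probe sets are on different scales. Lama2 minus Lama4 was -1.81, -2.05 and -1.86 in controls and -1.07, -1.17 and -1.06 in mutants, a change of 0.80 (SE 0.08). The groups were far apart, and the replicates of each group were close together. Lamb1 minus Lamb2 changed by 0.60 (SE 0.18), from 1.17 ± 0.30 to 1.77 ± 0.08 (SD, n = 3 each), and Hspg2 minus Agrn by 0.62 (SE 0.28), from 2.17 ± 0.43 to 2.79 ± 0.25, although without control 2 this last change was 0.39. In these 3 pairs no mutant overlapped a control, and each gave an exact two-sided permutation p = 0.1, the smallest that 3 against 3 animals allow (adjusted p = 0.2 over 6 pairs). Nid1 minus Nid2 changed by -0.10 (SE 0.15, exact permutation p = 0.5) and Lama4 minus Lama5 by -0.05 (SE 0.30, exact permutation p = 1), with groups that overlapped. Lama2 minus Lama5 changed by 0.75 (SE 0.34, exact permutation p = 0.2). As Lama5 and Nid2 were within the background range, differences against them do not measure a relative change. Since the exact test cannot fall below 0.1 here, its p-values cannot separate any pair at 0.05, and the changes with their SEs are given as a description.

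**Figure D3:**
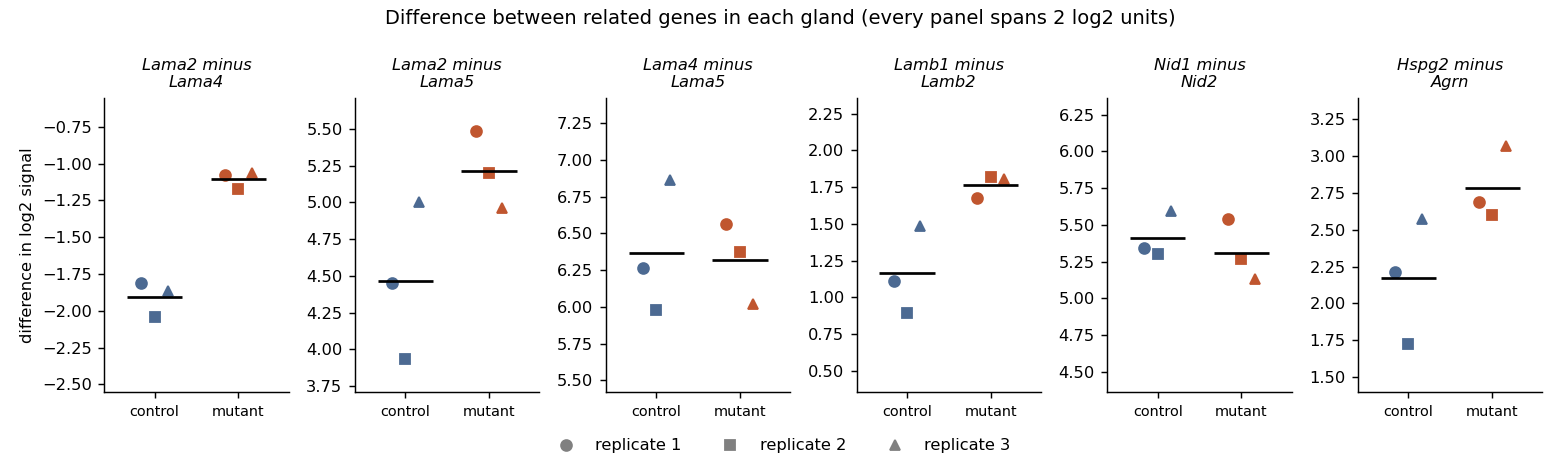
Difference in log2 signal between related genes in each control (blue) and mutant (orange) gland, with group means as lines; every panel spans the same range. Lama2 minus Lama4, Lamb1 minus Lamb2 and Hspg2 minus Agrn are higher in all 3 mutants, and the other pairs overlap.

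The genes also varied together between animals of the same group. In 7 of the 10 genes (Lama2, Lama4, Lamb1, Lamb2, Lamc1, Hspg2 and Nid1) control 2 was the lowest control and control 3 the highest. Mutant 3 was the lowest mutant in 8 of the 10, and mutant 1 the highest in 6. Averaged over the 10 genes, the controls measured 9.44, 9.27 and 9.54 and the mutants 10.11, 10.02 and 9.77. Fibroblast markers kept this order of animals, with a list mean of 10.04, 9.83 and 10.27 in the control animals against 11.10, 10.71 and 10.20 in the mutant animals. All 8 fibroblast markers measured had higher means in mutants, with a median change of 0.62. Of the 8, 1 (Lum) did not overlap between groups. Over all 22206 probe sets, 10666 had higher means in mutants and 8% were separated in this direction.

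Markers of vessels were higher beside the basement membrane genes as well. Of 12 endothelial markers 10 had higher means in mutants (median change 0.36) and 6 did not overlap between groups, and the list averaged 11.34, 11.14 and 11.23 in control glands against 11.53, 11.64 and 11.46 in mutant glands. Smooth muscle and pericyte markers were higher in 8 of 10 (median change 0.38), with 4 separated between groups. Background-range means in both groups were found for 4 of the 10. Among these dim markers were Notch3, which was separated, and Myh11 and Cnn1, which had lower means in mutants. The list averaged 8.83, 8.58 and 8.85 in control glands against 9.45, 9.03 and 9.01 in mutant glands. Beside the 4 separated markers here and the 6 endothelial ones, 8% of all probe sets were separated in this direction. Adipocyte list means ranged from 7.36 to 10.11 in controls and from 8.48 to 11.52 in mutants, with the highest in mutant 1, and 9 of 10 adipocyte markers had higher means in mutants (median change 0.99). Schwann cell and glial markers were lower in 7 of 8 (median change -0.13), with list means of 6.33 to 6.73 in controls and 6.29 to 6.51 in mutants. Of these 8 glial markers 7, Sox10 and S100b among them, had background-range means in control and mutant glands alike. Chromaffin cell markers were lower in 8 of 8 (median change -0.33), with the highest list mean, 13.70, in control 2 and the others between 12.62 and 12.86. Kidney markers were within the background range in 7 of 8 cases, with a median change of 0.04. No marker in any of these lists passed the test (limma adjusted p from 0.227 upward), and the part of these cell types in the basement membrane values was not tested. Mutant 1 had the highest adipocyte and fibroblast means, and without it the median change of the 10 genes was 0.44. The fibroblast mean of mutant 2 was also above every control. Leaving out 1 gland cannot separate cell content from genotype.

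**Figure D4:**
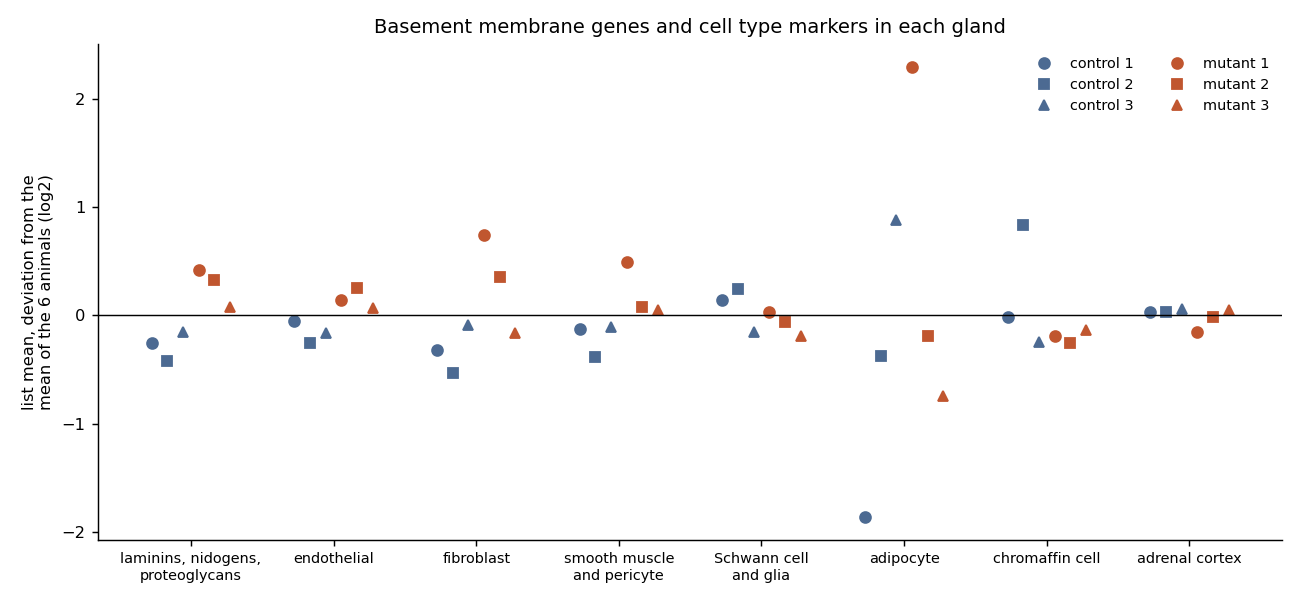
Mean log2 signal of the 10 basement membrane genes and of 7 marker lists in each gland, as the deviation from the mean of the 6 glands. Basement membrane, endothelial and smooth muscle lists are higher in all 3 mutants, mutant 3 lies below control 3 in the fibroblast list, and adipocyte signals spread widely in both groups.

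Laminin chains outside the list had mixed signals. Lamc3, a gamma chain found in nerve, skin and vessel walls, was higher in every mutant, with a change from 8.65 ± 0.08 to 9.18 ± 0.10 (SD, n = 3 each) that did not pass (0.53, SE 0.14, limma adjusted p = 0.26). Lama1, the alpha chain of the embryonic laminin, differed by 0.47 (SE 0.21) and Lama3, the alpha chain of skin laminin, by 0.53 (SE 0.37). Animals overlapped in both. The group means of Lama3 lay within the background range, although mutant 1 (7.68) and mutant 2 (7.44) were above it. Lamb3, the beta chain of the same skin laminin, differed by -0.19 (SE 0.20) within the background range.

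Among the basement membrane collagens 6 of 8 had higher means (median change 0.41, and 0.24 without mutant 2), and 0 passed in either direction. At an unadjusted p under 0.05 (limma) there were 3 higher and 0 lower. Of all probe sets, 5.42% were called higher and 4.96% lower at that threshold. Col4a3 and Col4a4, which pair in the collagen IV of the kidney filter, differed by 0.94 (SE 0.25, limma adjusted p = 0.257) and 0.99 (SE 0.24, limma adjusted p = 0.205), with every mutant above every control. Their partner Col4a5 differed by 0.51 (SE 0.27) with overlap, and Col4a6 by -0.16 (SE 0.21). Both had group means within the background range, although mutant 2 was above it for Col4a5 (7.74). Col4a1 and Col4a2, the chains found in nearly all basement membranes, differed by 0.23 (SE 0.17) and 0.32 (SE 0.16). Col15a1 and Col18a1, collagens that carry glycosaminoglycan chains, had opposite signs, 0.88 (SE 0.37) and -0.17 (SE 0.16), with overlapping animals in both. The control means of Col4a4 (6.75) and Col15a1 (6.64) lay within the background range, as did mutant 3 for Col4a4 (7.26), which limits what their changes show.

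Receptors for these proteins had 11 of 15 higher means (median change 0.35), and 0 passed. At an unadjusted p under 0.05 (limma) there were 7 higher and 2 lower, where 5.42% and 4.96% of all probe sets were called. Bcam, a receptor for laminins with the alpha 5 chain, measured 12.69, 12.42 and 12.56 in controls and 13.92, 14.01 and 13.46 in mutants, a change of 1.24 (SE 0.19, limma adjusted p = 0.062). Mcam, a receptor for laminins with the alpha 4 chain, differed by 1.10 (SE 0.17, limma adjusted p = 0.0621). Itga3, the integrin alpha 3 subunit that binds laminins with alpha 3 and alpha 5 chains, differed by 0.98 (SE 0.16, limma adjusted p = 0.0797). Itga2, the collagen- and laminin-binding integrin alpha 2 subunit, was lower in every mutant, with a change of -2.16 (SE 0.29, limma adjusted p = 0.0529). These 4 were named for the smallest p-values in their list.

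Of 16 genes for assembly and associated proteins 11 had higher means, but the median change was only 0.07, with 2 higher and 0 lower at an unadjusted p under 0.05 and 0 past the test (limma). The 2 were Egflam, the dystroglycan ligand pikachurin (1.34, SE 0.31, limma adjusted p = 0.191), and Fn1, fibronectin (1.35, SE 0.36, limma adjusted p = 0.257). The control mean of Egflam, 7.26, lay within the background range. Next by p were Npnt, the integrin ligand nephronectin (0.32, SE 0.17), and the dim Frem2 (0.28, SE 0.18). Enzymes that build and edit heparan sulfate, the chains carried by perlecan and agrin, were higher in 12 of 16. Their median change was 0.20, and 0.13 without mutant 2 or without control 3. At an unadjusted p under 0.05 there were 2 higher and 0 lower, with 0 past the test (limma). Beside the counts of both lists, 5.42% of all probe sets were called higher and 4.96% lower at that threshold. Sulf2, which removes sulfate from finished chains, differed by 0.50 (SE 0.15) and Hs3st1, a sulfotransferase, by 1.003 (SE 0.32). B3gat3, which completes the linker that joins chain to protein, and the sulfotransferase Hs6st1 differed by -0.44 (SE 0.21) and -0.31 (SE 0.15).

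Enzymes that put laminin-binding sugars on dystroglycan were measured for 6 of 12 genes. Their median change was 0.14, and 0 of 6 had an unadjusted p under 0.05 or passed (limma). Pomt1 (0.21, SE 0.16), Pomk (0.28, SE 0.23), B3galnt2 (0.20, SE 0.17) and Pomgnt1 (-0.11, SE 0.16) all overlapped between the groups. Of 12 genes for proteins that degrade basement membrane 4 had higher means (median change -0.11), and 0 passed. At an unadjusted p under 0.05 (limma) there were 1 higher and 1 lower, where 5.42% and 4.96% of all probe sets were called. Mmp2, the gelatinase that cleaves collagen IV, measured 9.41, 9.13 and 9.55 in controls and 11.01, 10.99 and 10.16 in mutants, a change of 1.36 (SE 0.25, limma adjusted p = 0.107). The lysosomal protease Ctsl differed by -0.67 (SE 0.23), Bmp1, a procollagen protease that also processes laminin chains, by -0.19 (SE 0.15), and Mmp9 by 0.26 (SE 0.18) within the background range.

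**Figure D5:**
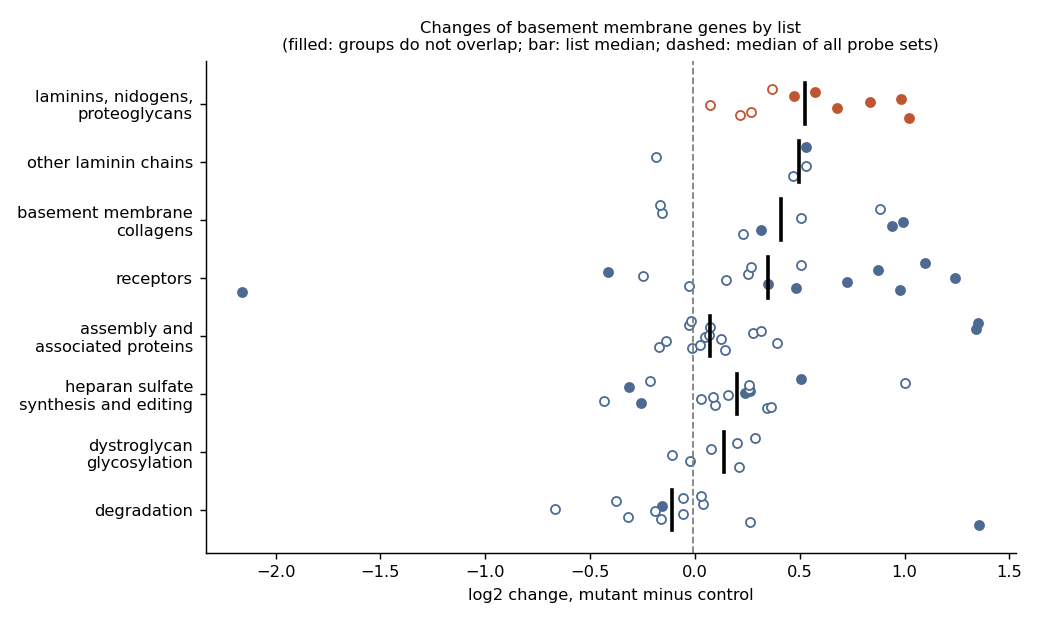
Log2 change between mutant and control glands of each gene in the 8 basement membrane lists; filled circles are genes whose animals do not overlap, black bars are list medians and the dashed line is the median of all probe sets, -0.01. The 10 laminin, nidogen and proteoglycan genes all lie above 0, with a median of 0.52, and the degradation genes have a median of -0.11.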

How the data were processed

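Arrays of 6 glands were grouped by the descriptions in their labels. The authors deposited 1 log2 signal for each probe set and animal. Transcriptome Analysis Console 4.0 is the tool in the submitters' processing notes; how signals were background-corrected, summarised and normalized is not stated there. Forcing arrays to 1 distribution would hide a change common to most genes, and array signals compress differences at the dim and bright ends. The values were used without further normalization.

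After 6640 control probe sets were left out, mutant minus control was fitted over 22206 probe sets and all 6 arrays with lmFit and eBayes of limma 3.58.1 (R 4.3.3), without covariates. P-values are two-sided, adjusted by Benjamini-Hochberg over the 22206, with a threshold of 0.05. Standard errors and 95% intervals of single genes come from this fit; those of pair differences come from the animals. The fit was also run on simulated data in which probe sets varied independently, so that run does not address variation shared between genes.

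The 10 genes, the other lists and the tests were chosen with earlier results of these data known. Named outside the 10 were the other laminin chains analysed, the basement membrane collagens, and the 4 genes of smallest unadjusted p from each other list. Stk4 was named as well, and the markers Lum, Notch3, Myh11, Cnn1, Sox10 and S100b were named after their values were seen. Alternatives were other normalizations and filters, variance models, covariates, array weights, a replicate block, and omission of each animal.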

Additional observations from a re-analysis of the deposited data

How the results depend on the processing

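All 10 genes kept a change above 0 in 14 alternatives, and 9 of 9 did in the other, where only probe sets above the median level were tested and Lama5 was left out. The number of them past the threshold was 0 as reported. It was 1 of 9 with only probe sets above the median level (Hspg2), where 92 of all 11103 passed. With trend and robust variance it was 2 of 10 (Hspg2 and Lama2), where 175 of all 22206 passed. At a limma adjusted p under 0.1 it was 1 (Hspg2), and the share of all probe sets at that level was not counted. The median change of the listed genes stayed between 0.44 (without mutant 1) and 0.65 (without mutant 3). Of 77 genes of the other basement membrane lists, 0 passed the threshold as reported. That number was 1 each with quantile normalization, with a shift to a common median, with only named probe sets and with array weights. Without dim probe sets 5 of 56 passed, where 92 of all 11103 did. With trend and robust variance 6 of 77 passed, where 175 of all 22206 did. Over the whole array 16 of 22206 probe sets passed as reported. With fewer probe sets tested, 92 of 11103 passed without dim probe sets and 41 of 19572 with only named ones. Of all 22206, 38 passed with quantile normalization, 32 with a shift to a common median, 175 with trend and robust variance and 48 with array weights. The count was 8 with a covariate for intron control signal and 2 with one for adipocyte signal. Leaving out 1 animal gave from 1 to 15, with 1 without control 1, without control 2 or without control 3 and 6 without mutant 2. The causes were not tested. With the replicate block 1 probe set passed and 0 of the 10 genes did. Deviations of animals with the same number had r of -0.09, 0.08 and -0.07 over probe sets, within the -0.10 to 0.16 of animals with different numbers. The numbers were therefore not used to pair animals, although a weak pairing could not be seen with 3 animals a group. No listed gene had several probe sets, so averaging them was not run. Group means of Lama5 and Nid2 within the background range limit what their changes show.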
